A study of Homo sapiens with 6 samples.

Results

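Tissue factor and the plasminogen activator system were described here through 9 genes, chosen by symbol: F3, TFPI, TFPI2, PLAU, PLAUR, PLAT, SERPINE2, SERPINB2 and THBD. The 9 genes were chosen with earlier results of these data known. A probe set carried the symbol of 8 of them, out of 17687 named genes on the array, and SERPINB2 was not analysed here. The values came from 6 Clarion S arrays, each of 1 culture condition of a lung cancer cell line. All 3 lines derive from non-small cell lung cancer. PC-9 and HCC827 carry mutant EGFR (epidermal growth factor receptor), and each gave 1 array after 6 hours in 0.01 µM erlotinib, an inhibitor of the EGFR kinase, and 1 control array. H322, a line with wild-type EGFR, gave 1 array after 6 hours in EGF, the ligand of the receptor, for which the labels state 100 µg/ml, and 1 control array. According to the labels the culture medium held tumour necrosis factor alpha (TNF), and they do not say whether the control cultures had TNF as well. If they had none, TNF and the added agent cannot be told apart in any comparison.

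Tissue factor, encoded by F3, is a transmembrane receptor that binds coagulation factor VII and so starts the coagulation cascade. TFPI, the tissue factor pathway inhibitor, blocks that complex, and thrombomodulin, encoded by THBD, turns thrombin from a clotting into an anticoagulant enzyme. On the other side of the system, urokinase (PLAU) and tissue-type plasminogen activator (PLAT) convert plasminogen to plasmin, which dissolves fibrin and degrades matrix around tumour cells. The urokinase receptor PLAUR holds urokinase at the cell surface. SERPINE2 (protease nexin 1) and SERPINB2 (plasminogen activator inhibitor 2) inhibit the activators, and TFPI2, a Kunitz-type relative of TFPI, inhibits plasmin.

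Promoter windows from RefSeq (GRCh38.p14) run from 250 bases before to 50 bases after a start site. PLAT was left out of this search by design, and no window was found for THBD. The other 7 of the 9 genes had 9 windows in all, with 2 each for PLAU and SERPINE2. The windows of F3, PLAUR and TFPI are shown because these are the 3 genes that passed the test with erlotinib below. They lie at chr1:94541710-94542009, chr19:43670120-43670419 and chr2:187554386-187554685, all on the minus strand, and are written 5′ to 3′. Capitals mark every match, on either strand, to 6 motifs: AP-1 (TGANTCA), EGR1 (GCGNGGGCG), SP1 (GGGCGG), the TATA box (TATAAA), ETS (CCGGAAGT) and NF-kappaB. The NF-kappaB motif is a consensus of 10 letters: GGG, any 2 bases, TT, any base and CC.
F3: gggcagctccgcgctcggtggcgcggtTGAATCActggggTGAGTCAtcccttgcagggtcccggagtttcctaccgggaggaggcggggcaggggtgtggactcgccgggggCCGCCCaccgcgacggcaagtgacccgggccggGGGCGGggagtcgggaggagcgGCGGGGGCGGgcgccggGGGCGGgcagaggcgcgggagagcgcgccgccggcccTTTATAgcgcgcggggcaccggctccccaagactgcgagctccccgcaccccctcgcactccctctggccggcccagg
PLAUR: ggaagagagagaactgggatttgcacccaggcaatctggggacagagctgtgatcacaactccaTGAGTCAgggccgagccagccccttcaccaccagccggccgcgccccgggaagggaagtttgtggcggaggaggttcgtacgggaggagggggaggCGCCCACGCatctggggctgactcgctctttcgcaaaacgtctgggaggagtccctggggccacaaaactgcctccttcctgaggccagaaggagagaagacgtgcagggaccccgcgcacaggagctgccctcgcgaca
TFPI: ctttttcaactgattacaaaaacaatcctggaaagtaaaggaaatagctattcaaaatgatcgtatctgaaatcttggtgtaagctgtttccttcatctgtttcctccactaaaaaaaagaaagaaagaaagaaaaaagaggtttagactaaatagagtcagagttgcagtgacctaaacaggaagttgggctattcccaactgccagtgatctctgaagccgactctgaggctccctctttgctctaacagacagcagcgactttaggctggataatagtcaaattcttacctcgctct
The F3 window held 2 AP-1 matches, which began 223 and 210 bases before the start site, 1 EGR1 match that overlaps an SP1 match, 4 SP1 matches in all and 1 TATA box match. The PLAUR window held 1 AP-1 match, 186 bases before the start site, and 1 EGR1 match, 90 bases before it. None of the 6 motifs was found in the TFPI window. Over the 7 genes an AP-1 match was present for F3, PLAUR, TFPI2 and SERPINB2, and an EGR1 match for F3, PLAUR and TFPI2. Counted by window, 4 of 9 held an AP-1 match, 3 an EGR1 match, 5 an SP1 match and 2 a TATA box. Among all 35116 promoter windows in the reference, 7.71% held an AP-1 match, 9.43% an EGR1 match, 45.0% an SP1 match, 11.5% a TATA box, 4.14% an ETS match and 5.68% an NF-kappaB match. No ETS or NF-kappaB match was found in the windows of the 7 genes, which says only that these letters are not there. The search counted exact matches, so a site that departs from its pattern by 1 base was missed. Whether any match bears on the change with erlotinib was not tested.

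**Figure D1:**
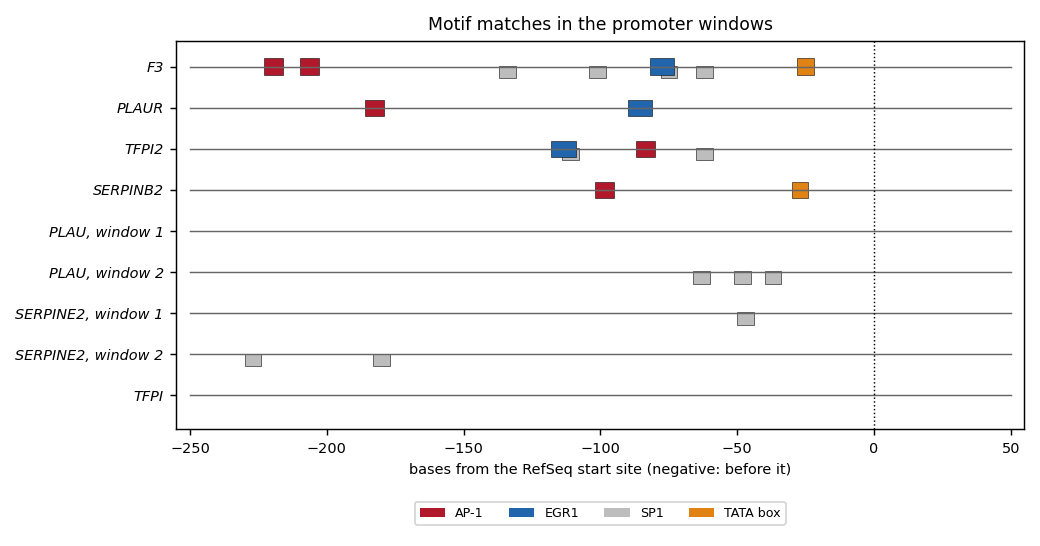
Positions of motif matches in the 9 promoter windows, with bases from the RefSeq start site on the horizontal axis and 1 line per window; colours give the motif. The windows of F3, PLAUR and TFPI2 each hold AP-1 and EGR1 matches, at separate positions, and the TFPI window has none of the 6 motifs searched. Whether a match bears on the change with erlotinib was not tested.

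Signals are given as log2 of the intensity plus 1. The array holds 612 negative control probe sets. The brightest of them on each array lay between 13.03 and 13.76, above every PLAUR signal and both F3 signals with erlotinib. A signal above 95% of the negative controls on its own array was counted as above background. That limit lay between 6.92 and 7.47, and 48.8% to 52.4% of all genes exceeded it. The epithelial markers EPCAM, CDH1, KRT7, KRT8, KRT18 and KRT19 were above it on all 6 arrays. Endothelium, which makes thrombomodulin and TFPI in the body, had 3 of 5 markers, PECAM1, KDR and TEK, within background on every array. CDH5 was above it on both PC-9 arrays and VWF on the HCC827 erlotinib array. Of 4 leukocyte, 5 fibroblast and 3 platelet markers, CD68 and COL1A2 were the ones above it on any array. FOSL1, an AP-1 subunit and an output of ERK signalling, fell by 5.13 ± 0.18 with erlotinib (limma's moderated SE, n = 2 lines, limma adjusted p = 9.2e-05), and FOSL1 in H322 had a signal of 10.61 with EGF and 8.41 in the control. EGR1, an immediate early transcription factor gene, passed the erlotinib test too (limma adjusted p = 0.0326), but both PC-9 arrays were within background for it. In HCC827 EGR1 had 7.87 with erlotinib and 9.83 in the control, and in H322 it had 8.61 with EGF and 8.83 in the control.

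The comparison of erlotinib with control asks what EGFR inhibition did to this system in the EGFR-mutant lines. The transcripts of tissue factor and the urokinase receptor fell, and that of the tissue factor inhibitor TFPI rose. Protein was not measured. Of the 8 measured genes, 2 fell, 1 rose and 5 did not pass limma's test at an adjusted p of 0.05, while 0.916% of all genes fell and 0.565% rose. The median log2 change of the 8 genes was -1.19, and that of all genes was -0.000268. Since the genes were chosen with earlier results known, their shares against all genes, here and below, are descriptions. All genes also include those within background.

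F3 had a signal of 12.60 in PC-9 and 10.38 in HCC827 with erlotinib, against 13.85 in PC-9 and 13.44 in HCC827 controls. Each erlotinib signal was lower than either control signal, and the HCC827 erlotinib array stood lowest. The share of all genes with erlotinib and control signals apart was not counted. Such separation, here and for the genes below, is therefore only a description. F3 fell by 2.15 ± 0.36 on the log2 scale (limma adjusted p = 0.0401, n = 2 lines), which is a 4.45-fold decrease. By line the decrease was 8.35-fold (HCC827) and 2.38-fold (PC-9), a difference between the lines that was not tested, since each line has 1 array per condition. An array measures a whole culture, so fewer cells with the transcript and less of it per cell cannot be told apart. Among genes above background on both arrays of a line, the change of F3 was the 6th lowest of 8691 in HCC827 and the 133rd lowest of 8538 in PC-9.

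TFPI had a signal of 13.53 in PC-9 and 14.28 in HCC827 with erlotinib, against 12.80 in PC-9 and 13.43 in HCC827 controls. Both erlotinib signals were above both control signals, although the PC-9 erlotinib and the HCC827 control arrays were close. TFPI rose by 0.79 ± 0.13, or 1.73-fold (limma adjusted p = 0.0381, n = 2 lines), with increases of 1.66-fold (PC-9) and 1.80-fold (HCC827). The transcripts of the receptor that starts coagulation and of its inhibitor thus changed in opposite directions within each line. The log2 change of F3 minus that of TFPI was -1.98 in PC-9 and -3.91 in HCC827.

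TFPI2 had a signal of 12.87 in PC-9 and 9.98 in HCC827 with erlotinib, against 13.38 in PC-9 and 11.49 in HCC827 controls. The lines differed more than the treatments, since the PC-9 erlotinib signal lay above the HCC827 control signal. The mean log2 change was -1.01 ± 0.24 and did not pass (limma adjusted p = 0.0984), and PC-9 was 1.42-fold and HCC827 2.85-fold lower. THBD was within background on all 6 arrays, so no fold is given for it. Its PC-9 control signal of 6.90 was the one nearest to background, and the other THBD signals lay between 3.40 and 4.19.

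Among the genes of plasminogen activation the urokinase receptor PLAUR changed most alike in the 2 lines. Its signal was 11.25 in PC-9 and 11.37 in HCC827 with erlotinib, against 12.74 in PC-9 and 12.94 in HCC827 controls. The erlotinib arrays were close to each other, as were the control arrays. The groups did not overlap, and the share of all genes for which this held was not counted. PLAUR fell by 1.54 ± 0.15, or 2.90-fold (limma adjusted p = 0.00973, n = 2 lines), with decreases of 2.83-fold (PC-9) and 2.98-fold (HCC827). Its change was the 79th lowest of 8538 genes in PC-9 and the 77th lowest of 8691 in HCC827.

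PLAU, the urokinase gene, had a signal of 14.72 in PC-9 and 15.36 in HCC827 with erlotinib, against 15.83 in PC-9 and 15.55 in HCC827 controls. PC-9 erlotinib was the lowest of these, and the HCC827 arrays were nearly level. The mean log2 change of PLAU was -0.65 ± 0.19 and did not pass (limma adjusted p = 0.178), and PC-9 was 2.16-fold and HCC827 1.14-fold lower. The change of the receptor gene PLAUR minus that of its ligand gene PLAU was -0.39 in PC-9 and -1.38 in HCC827.

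PLAT, the gene of tissue-type plasminogen activator, had a signal of 11.62 in PC-9 and 9.32 in HCC827 with erlotinib, against 13.88 in PC-9 and 9.79 in HCC827 controls. The PC-9 control stood far above the other arrays, and the groups overlapped. PLAT was 4.80-fold lower in PC-9, the 25th lowest change of 8538 genes, and 1.38-fold lower in HCC827, the 1165th lowest of 8691. The mean log2 change of -1.37 ± 0.37 did not pass (limma adjusted p = 0.138). F3 and PLAT thus had their larger decrease in different lines, HCC827 for F3 and PC-9 for PLAT, which was not tested.

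SERPINE2, the gene of the activator inhibitor protease nexin 1, had a signal of 15.16 in PC-9 and 11.48 in HCC827 with erlotinib, against 15.21 in PC-9 and 11.95 in HCC827 controls. Both PC-9 arrays were high and both HCC827 arrays low. The mean log2 change was -0.26 ± 0.15 (limma adjusted p = 0.492).

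**Figure D2:**
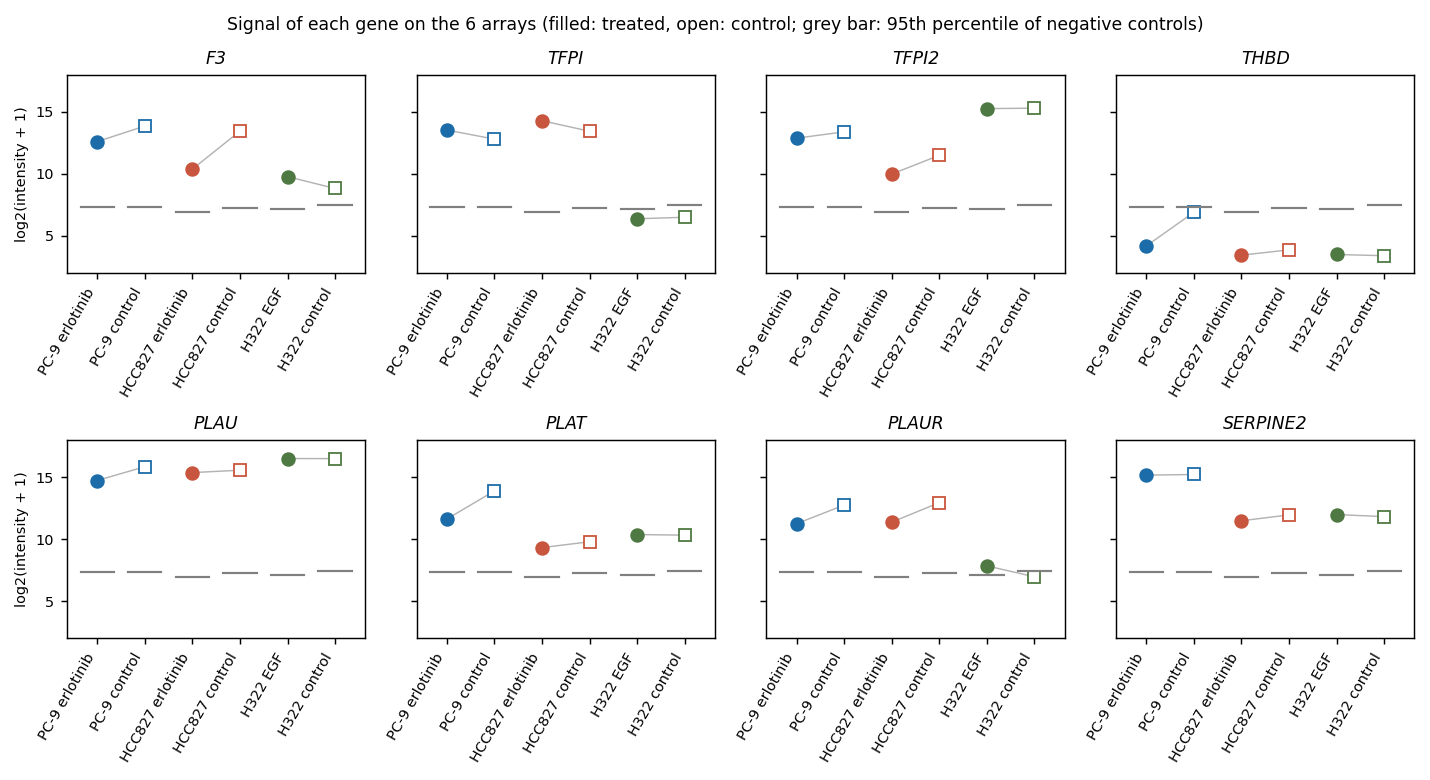
Signal of the 8 measured genes on each of the 6 arrays, as log2(intensity + 1) on the vertical axis; filled points are erlotinib or EGF, open squares are controls, and grey bars mark each array's background limit. F3 and PLAUR are lower and TFPI is higher with erlotinib in PC-9 and in HCC827, and THBD lies under the grey bar on all 6 arrays.

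By size alone, F3, PLAU, PLAUR and PLAT were at least 2-fold lower in PC-9, which is 4 of the 8 genes against 1.78% of all genes. In HCC827 F3, TFPI2 and PLAUR were at least 2-fold lower, 3 of the 8 against 1.92% of all genes. F3 and PLAUR were lower by this size in both lines, as were 0.684% of all genes. A gene was counted here when its higher signal reached 7.28, the median of all probe sets, and none of the 8 was 2-fold higher in PC-9, as 0.927% of all genes were, or in HCC827, as 2.57% were.

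**Figure D3:**
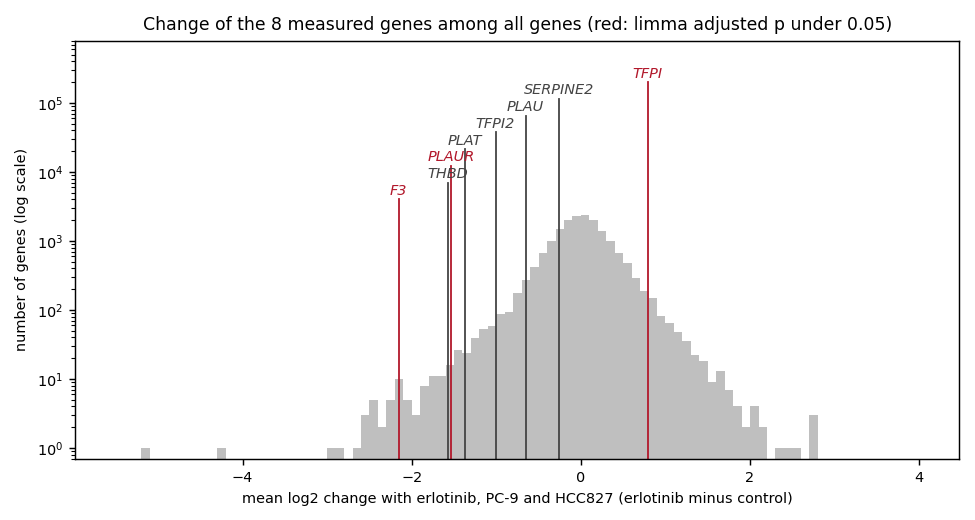
Number of genes (log scale) by mean log2 change with erlotinib over PC-9 and HCC827, with the 8 measured genes as vertical lines; red lines passed limma's test. F3 at -2.15 and PLAUR at -1.54 lie on the lower side and TFPI at 0.79 on the upper side of a distribution centred near 0.

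The fit has 1 residual degree of freedom and borrows most of its spread from other genes. That 1 degree of freedom is the difference in erlotinib change between PC-9 and HCC827. With 1 array per line and condition, the spread between repeat cultures of a line was not measured. Of 9 alternative fits PLAUR passed in 7, TFPI in 6 and F3 in 5, and none of the 3 passed when the spread did not follow the level or when the cell line was left out of the model.

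In H322 the comparison of EGF with control asks the opposite question, what stimulation of the wild-type receptor did. With 1 array per condition there is no test. F3 had a signal of 9.78 with EGF and 8.82 in the control, a 1.94-fold higher value, and this was the 14th highest change among 8583 genes above background on both arrays. PLAUR had 7.85 with EGF, just above background, and 6.96 in the control, within background, so it was at least 1.30-fold higher. For the other genes of the set the EGF and control signals were almost level: TFPI2 had 15.26 with EGF and 15.29 in the control, and PLAU had 16.49 on each array. PLAT had 10.37 with EGF and 10.32 in the control, and SERPINE2 had 11.98 with EGF and 11.82 in the control. TFPI, at 6.38 with EGF and 6.50 in the control, and THBD were within background. None of the 8 genes reached a 2-fold change, as 0.187% of all genes did.

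**Figure D4:**
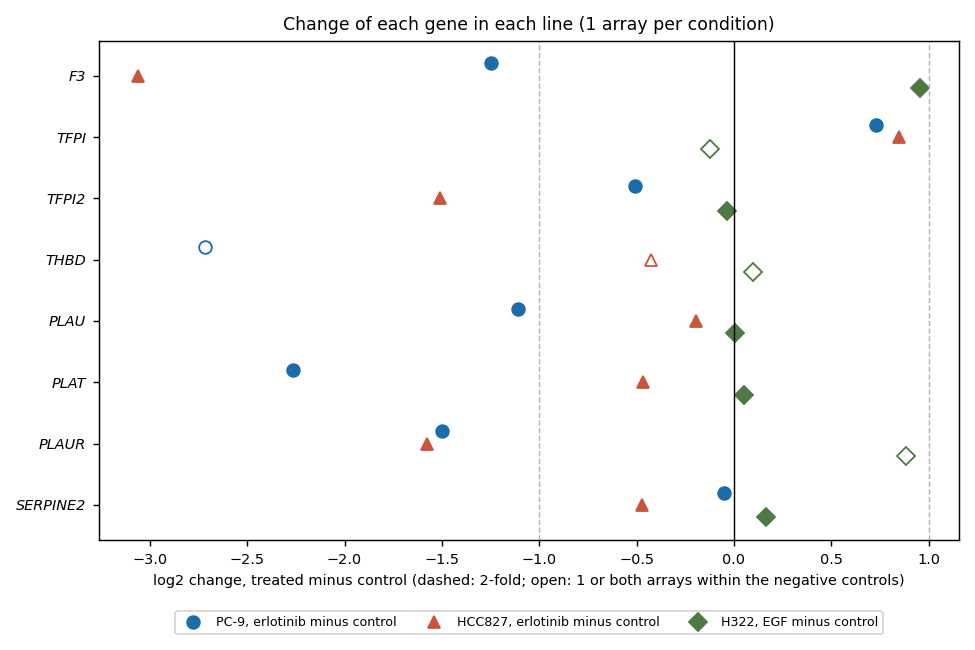
Log2 change of the 8 measured genes, erlotinib minus control in PC-9 (circles) and HCC827 (triangles) and EGF minus control in H322 (diamonds); dashed lines mark 2-fold and open symbols have 1 or both arrays within background. F3 has -1.25 and -3.06 with erlotinib and 0.96 with EGF, while PLAU and PLAT lie near 0 with EGF.

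The control arrays show how the lines differed without erlotinib or EGF, with 1 array each and no test. Whether these cultures had TNF is not stated in the labels. F3 was 32.6-fold higher in PC-9 than in H322 and 24.6-fold higher in HCC827 than in H322. PLAUR exceeded its H322 level at least 38.7-fold (PC-9) and at least 44.4-fold (HCC827), and TFPI did so at least 40.2-fold (PC-9) and at least 62.4-fold (HCC827), since the H322 control was within background for these genes. TFPI2 ran the other way, with PC-9 3.76-fold and HCC827 13.9-fold lower than H322.

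PLAU varied least of the 7 genes that were above background on any array, with a range of 1.77 on the log2 scale over the 6 arrays, and its PC-9 control was 1.57-fold and its HCC827 control 1.91-fold lower than that of H322. PLAT and SERPINE2 set PC-9 apart from the other lines. PLAT was 11.8-fold higher and SERPINE2 10.5-fold higher in PC-9 than in H322. For HCC827 the values against H322 were 1.45-fold lower for PLAT and 1.10-fold higher for SERPINE2.

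With erlotinib, F3 in HCC827 came to 10.38, nearer to the 9.78 of H322 with EGF than to its own control at 13.44. The order of F3 signals ran from PC-9 control over HCC827 control, PC-9 erlotinib, HCC827 erlotinib and H322 EGF down to H322 control. For PLAUR the order was HCC827 control, PC-9 control, HCC827 erlotinib, PC-9 erlotinib, H322 EGF and H322 control. For TFPI the HCC827 erlotinib array was highest and the H322 arrays were lowest. Without replicates of an array, no neighbours in these orders can be said to differ.

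Other genes of coagulation and fibrinolysis were taken from a list of 45, of which 44 were measured. Of these 1 fell with erlotinib, 0 rose and 43 did not pass in limma, against 1.48% of all genes that passed, and the median log2 change was -0.07. Of the 44, 24 were within background on every array and 7 above it on all of them. The gene that fell was LRP8, a receptor of the LDL receptor family, at -1.67 ± 0.22 (limma adjusted p = 0.0197, n = 2 lines). Its signal was 9.11 in PC-9 and 10.30 in HCC827 with erlotinib, against 11.13 in PC-9 and 11.63 in HCC827 controls.

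By role, the coagulation factor list had 0 of 14 genes past the threshold in limma, and 9 of the 14 were within background throughout. VWF, taken for its mean signal over all 6 arrays, was within background except on the HCC827 erlotinib array, at 6.49 in PC-9 and 7.28 in HCC827 with erlotinib, against 6.45 in PC-9 and 7.14 in HCC827 controls. FGB, which encodes the fibrinogen beta chain and was picked after its values were seen, was above background only in HCC827, at 11.53 with erlotinib and 11.17 in the control. Of 3 measured thrombin receptor genes 0 passed, and F2RL3, which encodes the receptor PAR4, was above background on all arrays with a log2 change of -0.15 ± 0.18. Of 7 anticoagulant genes 0 passed. PROS1, which encodes protein S, had 9.43 in HCC827 with erlotinib and 9.10 in the HCC827 control, and was within background in PC-9.

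Of 9 measured genes for plasminogen, its inhibitors and modifiers 0 passed, and 7 were within background on every array, PLG among them. HRG, which encodes histidine-rich glycoprotein, was above background on the PC-9 control array alone. Of the plasminogen receptor genes, ANXA2, which encodes annexin A2, had 17.62 in PC-9 and 17.37 in HCC827 with erlotinib, against 17.62 in PC-9 and 17.44 in HCC827 controls, and 0 of 4 passed. In the list of clearance receptors and matrix partners, 1 of 7 passed, LRP8. LRPAP1, the chaperone of these receptors, had 0.30 ± 0.16. THBS1, which encodes the matrix protein thrombospondin 1 and was picked after its values were seen, had a decrease of 7.02-fold in HCC827 and 1.45-fold in PC-9. Its HCC827 erlotinib signal of 6.97 was barely above that array's background limit of 6.92. The mean log2 change of THBS1 was -1.67 ± 0.44 and did not pass (limma adjusted p = 0.13).

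The genes whose signals followed F3 most closely over the 6 arrays, among 5221 genes above background on all arrays with a range of at least 2-fold, were LEPROTL1, BHLHE40 and DUSP14, with Pearson correlations of 0.994, 0.993 and 0.990. For PLAUR they were BZW1, CORO1C and SLC39A14, at 0.998, 0.998 and 0.997, and for TFPI NONO, PMPCB and TMEM53, at 0.998, 0.996 and 0.996. These values are descriptions, since the 6 arrays come in 3 pairs of the same line and the difference between lines makes up much of each pattern. Of these 9 genes CORO1C, which encodes an actin-binding protein, passed the erlotinib test, and it fell by 0.88 on the log2 scale (limma adjusted p = 0.025).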

How the data were processed

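Per the labels' protocols, Trizol was used to extract total RNA of the 3 lines, and biotinylated cRNA went onto Clarion S arrays. The authors deposited 1 linear intensity per probe set and array. Per the submitters' processing notes the software was Affymetrix Expression Console. How it corrected background, summarised probes and scaled arrays is not given in the sources used here. Array medians lay between 148 and 157, and if arrays were scaled to like medians, a change common to most genes is not visible.

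From 24351 probe sets log2(intensity + 1) was computed, which understates changes of dim genes. The platform annotation gave 17709 probe sets 1 symbol, 0 several and 6642 none. RefSeq held the gene identifier of each of the 17709, and 0 symbols changed. The brightest probe set was kept for the 20 genes with several. Where 1 array of a pair was within background, it was set to the 95th percentile of the negative controls and the fold given as "at least". Where both were, no fold is given.

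For erlotinib against control, the 4 arrays of the EGFR-mutant lines were fitted with limma 3.58.1 (R 4.3.3) by lmFit and eBayes with trend = TRUE, which lets the spread depend on the level. The line entered as a block, and the test was two-sided, with Benjamini-Hochberg adjustment over all 17687 genes. The pairing comes from the cell line. Values after ± are limma's moderated SE. The fit was tested on simulated data. The H322 pair (EGF, control) has no replicate, so nothing was tested there. Precision is limited by the number of arrays. The genes, lists and motifs were chosen with earlier results of these data known. The text names the 8 measured genes, list genes that passed or had the highest mean signal over all 6 arrays in their role group, the ERK output genes and the 3 genes most like F3, PLAUR and TFPI. FGB, THBS1, PLG and the promoter-only SERPINB2 fall outside this rule. Of 4 ERK output genes, 3 fell (FOSL1, DUSP6 and EGR1) and SPRY4 did not pass. The PC-9 erlotinib signals of DUSP6 and SPRY4 were within background, with a decrease of at least 9.57-fold for DUSP6 there. In HCC827 DUSP6 was 9.91-fold and SPRY4 2.31-fold lower. In H322 with EGF, DUSP6 was 1.70-fold and SPRY4 1.24-fold higher. Alternatives to the offset, the spread model, the block, the filter, the scaling and the choice of probe set were run.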

Additional observations from a re-analysis of the deposited data

How the results depend on the processing

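The number of genes that passed with erlotinib depended on the fit, with 262 of all genes and 3 of the 8 described. With a spread that did not depend on the level, limma called 1 gene and 0 of the 8, although 6 of the 8 had an unadjusted p under 0.05. With no replicate block, so that the pairing by cell line was ignored, it called 0 genes and 0 of the 8, where 186 genes and 1 of the 8 had an unadjusted p under 0.05. When genes within background on all 4 arrays were left out, it called 96 genes and 1 of the 7 tested, PLAUR. With an offset of 16 it called 166 genes, and F3 no longer passed. More genes were called with arrays centred on their medians (636 genes, 6 of the 8), with dim signals set to the background limit (1115 genes, 6 of the 8) and after quantile normalization (954 genes, 7 of the 8). When genes under the median level were left out, limma called 315, and with the mean of a gene's probe sets 243, with the same 3 of the genes described here (F3, PLAUR and TFPI) in both fits. The cause of these differences was not tested. Fits that changed only the spread model, the block or the gene filter could not move the log2 change of a gene. For F3, PLAUR and TFPI only the offset and the scaling moved it. The log2 change over the 10 fits lay between -2.18 and -2.15 for F3 and between -1.56 and -1.53 for PLAUR. For TFPI it lay between 0.76 and 0.80, and 0 of the 8 genes changed direction. THBD, within background on all arrays, lay between -1.60 and -0.17. With PC-9 left out the F3 change was -3.06, and with HCC827 left out it was -1.25. With 1 pair no test can be had, as no residual degree of freedom is left. With EGF 0 of the 8 genes reached 2-fold under each of the 5 alternatives run.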
